A study of Mus musculus with 2 samples.

Results

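The mouse microRNAs mmu-miR-26a-5p, mmu-miR-26b-5p, mmu-miR-103-3p, mmu-miR-107-3p, mmu-miR-191-5p and mmu-miR-425-5p are broadly expressed and often taken as reference levels, and were examined for how evenly they read in skin and oral mucosa. They were chosen by name, which is written below without the species prefix, and make up 6 of the 1892 mature mouse microRNAs on the arrays. Total RNA from unwounded (baseline) skin and from unwounded oral mucosa, each a pool from 3 animals, was hybridised to 1 single-colour Cy5 array per tissue, with 2 µg of RNA on each. The methods describe female Balb/c mice, 8 to 10 weeks old at the time of wounding, and do not describe the animals of the arrays apart. No transgene or treatment is named for either group. The specimens are called epithelium in some places and tissue samples in others, so how much connective tissue was included is not settled.

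A microRNA is a short RNA cut from a hairpin precursor. It guides the Argonaute protein to messenger RNAs that pair with its seed, the bases from position 2 to 8, and these messages are then repressed. The miR-26 family is known for restraining cell growth and as a regulator of EZH2, a histone methyltransferase. MiR-103 and miR-107 are known from insulin sensitivity and lipid metabolism and for targeting Dicer. MiR-191 and miR-425 are made from 1 transcription unit and are found in most tissues. A reference microRNA is useful when its level is the same in the tissues compared, because a scale built on an uneven one moves every other value.

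The mature sequences are printed to show which members a probe can be expected to tell apart. Capitals mark the seed.
miR-26a-5p: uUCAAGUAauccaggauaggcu
miR-26b-5p: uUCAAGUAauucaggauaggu
miR-103-3p: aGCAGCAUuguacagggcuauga
miR-107-3p: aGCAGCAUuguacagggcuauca
miR-191-5p: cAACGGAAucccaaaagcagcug
miR-425-5p: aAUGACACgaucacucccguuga

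The target sequences in the array files are identical to the RefSeq entries (GRCm38.p6) for all 6. MiR-26a-5p and miR-26b-5p share a seed, and with positions counted from 1 at the 5′ end they differ by C11U and C21U, besides the last base of the longer miR-26a-5p (22 bases against 21). MiR-103-3p and miR-107-3p share a seed as well and differ by G22C alone. How far each probe of these pairs also binds the other microRNA was not tested, so both pairs are uncertain as separate measurements. The seeds of miR-191-5p and miR-425-5p differ from each other and from those of the other 4. Of the 1892 microRNAs on the arrays, the only other one with any of these seeds is miR-489-3p, which shares that of miR-425-5p.

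The 6 are made from 8 precursor genes, and each of these lies within the span of a protein-coding gene on the same strand. RefSeq places Mir26a-1 at chr9:119031796-119031885 (+) in Ctdspl, Mir26a-2 at chr10:126995530-126995613 (+) in Ctdsp2, and Mir26b at chr1:74394310-74394394 (+) in Ctdsp1. These 3 hosts encode related small C-terminal domain phosphatases. Mir103-1 lies at chr11:35782396-35782481 (+) in Pank3, Mir103-2 at chr2:131288052-131288137 (+) in Pank2, and Mir107 at chr19:34820687-34820773 (-) in Pank1. The Pank genes encode pantothenate kinases, which start the synthesis of coenzyme A. Mir191, at chr9:108568319-108568392 (+), and Mir425, at chr9:108568777-108568861 (+), both lie in Dalrd3 and are 384 bases apart. Whether each hairpin is intronic or exonic is not given in the tables used here. Since the mature miR-26a-5p and miR-103-3p each come from 2 precursors, their probes read the sum of both.

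Every microRNA has 2 repeat spots on each array, and its level is the mean of the median brightness of these spots, in scanner units. For skin the 16 empty spots averaged 36.4 (SD 7.84), and for oral mucosa 51.9 (SD 6.65). A microRNA was called detected above the mean of the empty spots plus 3 SD, which is 59.9 for skin and 71.8 for oral mucosa. All 6 members were detected on both arrays, against 20.8% of all microRNAs (394 of 1892). The SD given beside a level is that of its 2 repeat spots. It covers technical error within an array only, and with 1 array per tissue there was no replicate and no test between the tissues.

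MiR-26a-5p was bright on both arrays. Its skin spots read 5268 and 4994 (mean 5131 ± 194), and its oral mucosa spots 5504 and 6377 (mean 5941 ± 617). The brightness is thus similar, and the oral mucosa spots are above the skin spots before any scaling. MiR-26b-5p, its family member, read the other way. Its skin spots read 953 and 864 (mean 909 ± 63.0) and its oral mucosa spots 582 and 719 (mean 650 ± 97.1), and even the brighter oral mucosa spot is below both skin spots.

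MiR-103-3p read 939 and 807 on the skin array (mean 873 ± 93.0) and 1347 and 1284 on the oral mucosa array (mean 1315 ± 44.8). MiR-107-3p read 859 and 797 in skin (mean 828 ± 44.0) and 1210 and 1261 in oral mucosa (mean 1235 ± 36.5). Both are brighter in oral mucosa at each spot, by a ratio of 1.51 for miR-103-3p and 1.49 for miR-107-3p before scaling. One spot of each lies in column 1 at the edge of the array. Some spots near the ends of columns 1 and 2 are dim on the skin array. The column 1 spots of miR-103-3p and miR-107-3p are the brighter of their 2 skin spots. Whether the place of these spots had a part in the readings was not tested.

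MiR-191-5p read 1580 and 1346 in skin (mean 1463 ± 166) and 1367 and 1450 in oral mucosa (mean 1409 ± 59.3). The spots of the 2 arrays overlap in brightness, as they do for no other member. MiR-425-5p, its neighbour in Dalrd3, was the only member near the detection limit. Its skin spots read 88.2 and 141 (mean 114 ± 37.0), 1.91 times the limit on average, and its oral mucosa spots 253 and 272 (mean 263 ± 13.4), or 3.66 times the limit. The oral mucosa spots are clearly above those of skin, but the skin spots differ widely, with an SD of 32.3% of their mean against 3.78% to 11.3% for the other 5 members on that array.

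**Figure D1:**
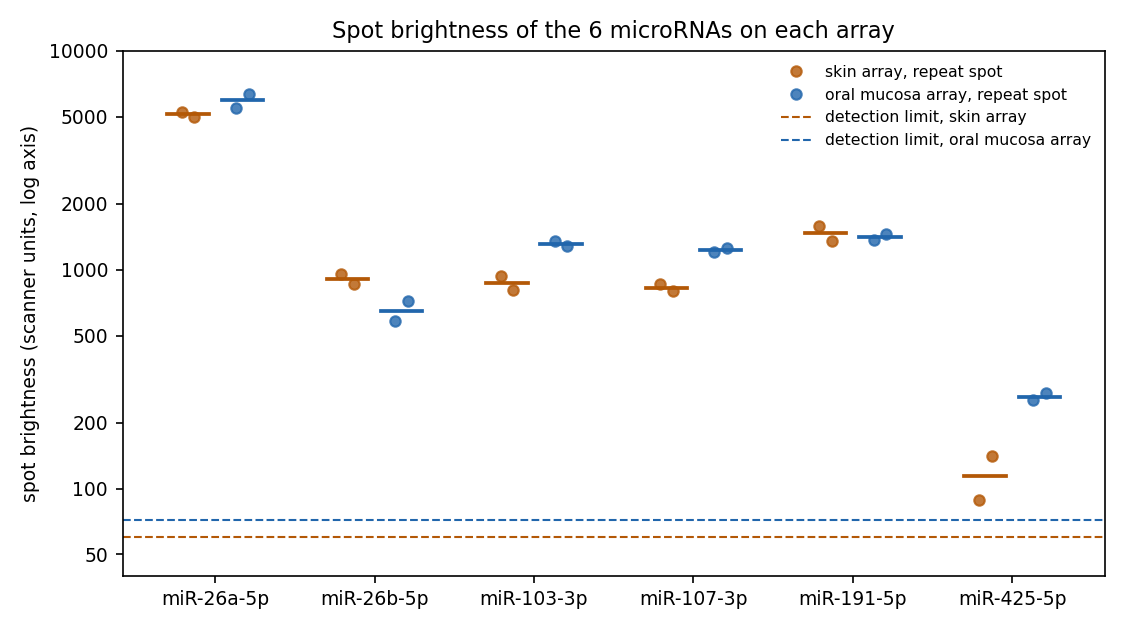
Brightness of each repeat spot (points, scanner units on a log axis) of the 6 microRNAs on the skin array and the oral mucosa array, with the mean of the 2 spots as a bar and the detection limits of 59.9 and 71.8 as dashed lines. All spots lie above the limits, miR-26b-5p is brighter on the skin array, and miR-425-5p is the member closest to the limit.

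To set the arrays on 1 scale, Variance Stabilizing Normalization (VSN) was fitted over all 1892 microRNAs. It subtracts an offset per array (37.9 for skin, 46.3 for oral mucosa) and then divides the oral mucosa signal by 1.37 relative to skin. VSN values run parallel to log2 at high signal. All differences below are oral mucosa minus skin on this log2 scale, with an SD that combines the repeat spots of both arrays. Because these are bulk tissues, fewer cells of a type and less RNA per cell cannot be told apart in any of them.

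The 6 members read in both directions on this scale. The median of their differences was -0.06, the same to 2 decimals as the median over the 394 microRNAs detected on both arrays, with 3 members above 0 and 3 below. Their range was 2.03, from -0.99 for miR-26b-5p to 1.04 for miR-425-5p. The median size of a difference, without its sign, was 0.38 for the members and 0.50 for the 394. Differences smaller than 0.32 were found for 3 of the 6 members, against 33.0% of the 394.

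Closest to 0 on the VSN scale were miR-107-3p and miR-103-3p, with differences of 0.13 (SD 0.09) and 0.15 (SD 0.17), or 1.10 and 1.11 times the skin level. A smaller size of difference was found for 14.4% and 15.7% of the other 388 microRNAs detected on both arrays. With the spots of columns 1 and 2 left out, the differences of miR-107-3p and miR-103-3p were both 0.24. MiR-26a-5p followed at -0.25 (SD 0.16), which is a level 1.19 times as high in skin. These 3 differences are within 2 SD of their own repeat spots, and which of them is closest to 0 depends on the scaling. Under 15 other settings of the processing, miR-26a-5p was closest in 8, miR-107-3p in 4, miR-103-3p in 2 and miR-191-5p in 1. The 8 include the setting without probes in columns 1 and 2, in which miR-103-3p and miR-107-3p have no value. Measured from the median of the 394 instead of 0, miR-26a-5p was closest with VSN (-0.18) and in 12 of the 15, that setting among them. Settings that differ only by a constant shift give the same value from the median, so the 15 are not independent.

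MiR-191-5p was lower on the oral mucosa array by -0.52 (SD 0.18), or 1.44 times as high in skin, so that its nearly equal brightness before scaling became a difference of 2.91 SD. A smaller size was found for 51.5% of the other 388, which puts miR-191-5p in the middle of the detected microRNAs. MiR-26b-5p was lower by -0.99 (SD 0.26), which is 1.98 times as high in skin and 3.86 SD from 0. The size was smaller for 72.4% of the other 388. MiR-425-5p was higher on the oral mucosa array by 1.04 (SD 0.73), or 2.06 times the skin level, a difference of 1.43 SD. The size was smaller for 76.0%. Single pairs of spots of miR-425-5p gave differences from 0.55 to 1.71, and those of miR-26b-5p from -1.23 to -0.75. Each SD rests on 2 spots per array and is itself uncertain, so multiples of it are rough. Over all microRNAs detected on an array, the root mean square SD of repeat spots was 0.48 in log2 brightness for skin and 0.20 for oral mucosa.

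By the size rule of a 2-fold difference, 1 of the 6 members differed, miR-425-5p, and miR-26b-5p fell just short of it. In 6 of the 15 other settings no member passed, miR-425-5p included. Of the 562 microRNAs above the limit for either tissue 28.5% passed this rule, 13.7% with higher signal in oral mucosa and 14.8% in skin, and of the 394 above both limits 26.4% passed. The share of the members is thus not above the background with VSN, and in the 6 settings in which no member passed the background was 12.5% to 37.9%. At 1.5-fold 2 members passed, against 45.6% of the 562, and at a difference of 0.32 or more 3 members, against 66.4%. Among the other 181 microRNAs in the members' range of mean level, 25.4% passed the 2-fold rule, with a median size of 0.45. The VSN values of the repeat spots did not overlap between the arrays for any of the 6, but neither did they for 67.8% of the 394. For miR-103-3p and miR-107-3p the nearest spots of the 2 arrays were only 0.00065 and 0.045 apart.

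**Figure D2:**
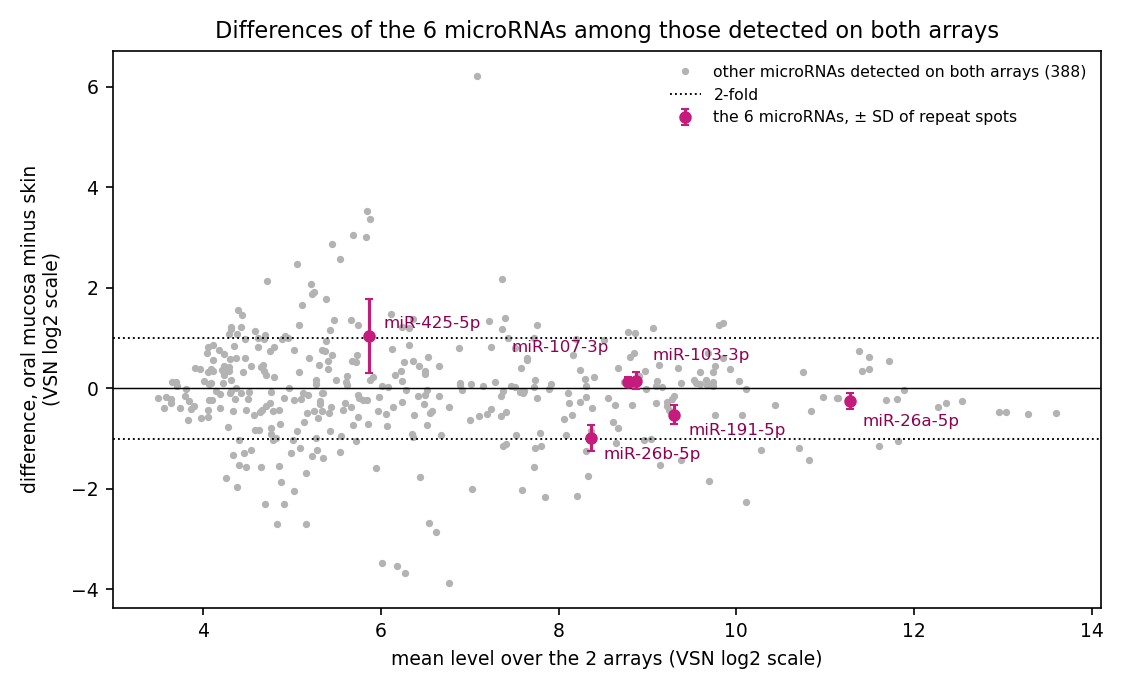
Difference of each microRNA detected on both arrays (oral mucosa minus skin, VSN log2 scale) against its mean level over the 2 arrays, with the 6 microRNAs in colour, error bars of ± 1 SD from repeat spots, and dotted lines at 2-fold. The 6 run from miR-26b-5p at -0.99 to miR-425-5p at 1.04, with miR-103-3p and miR-107-3p closest to 0, while the 394 microRNAs plotted run from -3.87 to 6.21.

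In order of their differences the members ran miR-26b-5p, miR-191-5p, miR-26a-5p, miR-107-3p, miR-103-3p and miR-425-5p. A difference between the values of 2 members is not moved by a constant shift between the arrays, and all 15 pairs were compared in this way. For 14 pairs it was larger than the combined SD of the 4 sets of repeat spots, for 8 larger than 2 SD, and for 5 at least 2-fold. Of neighbours in the order, miR-107-3p and miR-103-3p differed by 0.01 (SD 0.19), less than their spread. MiR-26b-5p and miR-191-5p (0.46, SD 0.31), miR-191-5p and miR-26a-5p (0.28, SD 0.24), and miR-103-3p and miR-425-5p (0.90, SD 0.75) differed by between 1 and 2 SD. Only between miR-26a-5p and miR-107-3p did neighbours differ by more than 2 SD (0.38, SD 0.19).

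The 3 natural pairs behaved unlike each other. MiR-103-3p and miR-107-3p share a seed and all bases but 1. The ratio of miR-103-3p to miR-107-3p was 1.01 times as high in oral mucosa as in skin, a difference of 0.01 (SD 0.19). How far each of their probes also binds the other microRNA was not tested. MiR-26a-5p and miR-26b-5p share a seed too, but the ratio of miR-26a-5p to miR-26b-5p was 1.67 times as high in oral mucosa as in skin, a difference of 0.74 (SD 0.30). MiR-425-5p and miR-191-5p come from neighbouring hairpins of 1 host gene and read in opposite directions, 1.56 apart (SD 0.75), so that their ratio differed 2.96-fold between the arrays. The widest gap, 2.03 (SD 0.77) or 4.08-fold, was between miR-425-5p and miR-26b-5p.

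The 15 other settings changed the background correction, the scaling or the choice of spots. The difference of miR-26a-5p minus that of miR-26b-5p lay between 0.54 and 0.84. That of miR-103-3p minus miR-107-3p lay between -0.07 and 0.03, and that of miR-191-5p minus miR-425-5p between -2.31 and -1.01. Taken relative to the median of the microRNAs detected on both arrays, each member kept its direction under every setting that gave it a value. MiR-26b-5p lay between -1.13 and -0.74 from this median, miR-191-5p between -0.57 and -0.34, and miR-26a-5p between -0.29 and -0.02. On the other side, miR-107-3p lay between 0.15 and 0.31, miR-103-3p between 0.18 and 0.32, and miR-425-5p between 0.67 and 1.74. The deposited processed intensities gave -0.07 for miR-26a-5p, -0.90 for miR-26b-5p, 0.26 for both miR-103-3p and miR-107-3p, -0.40 for miR-191-5p and 0.68 for miR-425-5p, on the scale of log2(value + 50). Measured from 0 in place of the median, miR-26a-5p changed direction with no normalization (0.21) and with scaling to the total signal after subtraction of the empty spots (0.01).

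**Figure D3:**
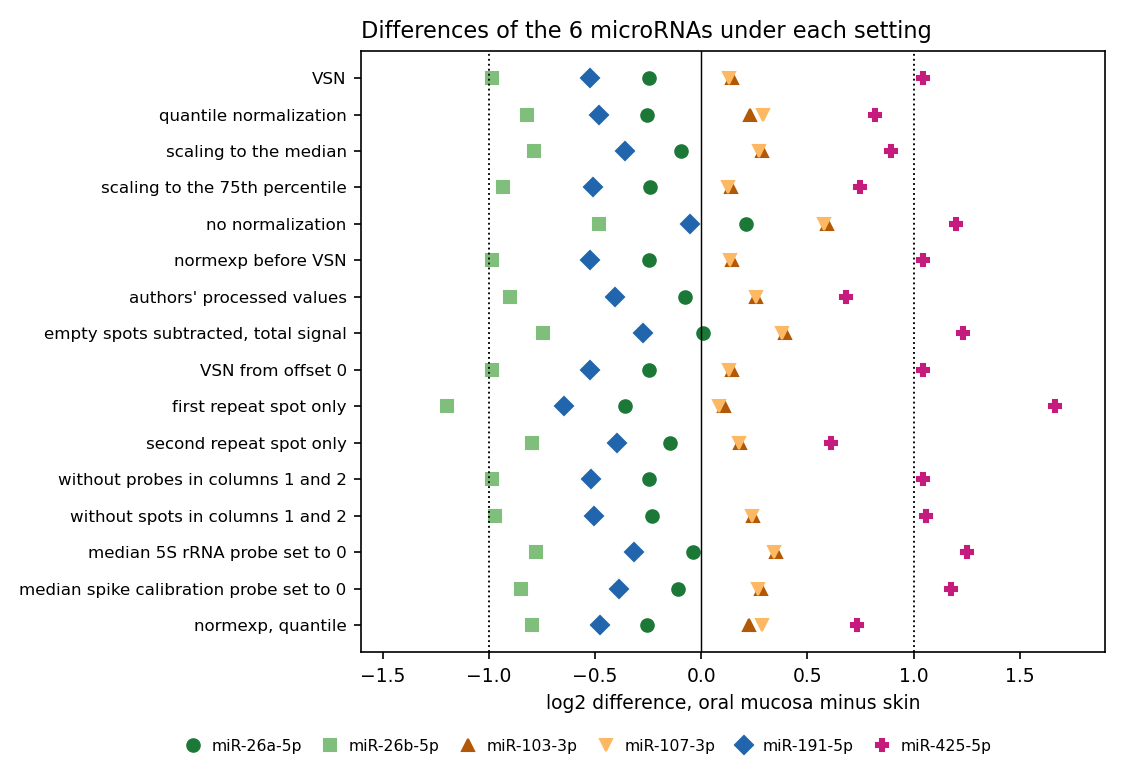
Difference of the 6 microRNAs (oral mucosa minus skin, log2) with VSN and under each of 15 other settings, with dotted lines at 2-fold and a solid line at 0. In each setting miR-26b-5p is lowest and miR-425-5p highest, and only miR-26a-5p crosses 0, while miR-103-3p and miR-107-3p have no value without the probes of columns 1 and 2.

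How many of the 562 microRNAs were called different depends by construction on which member is set equal, since a constant is taken from every difference. The counts below thus restate how far each member lies from 0. With the VSN scale as fitted, 160 of the 562 microRNAs passed the 2-fold rule, 77 higher in oral mucosa and 83 in skin. With the median of the members set to 0 it was 162 (28.8%), 86 and 76. With miR-103-3p or miR-107-3p set to 0 it was 158 each, with 60 and 61 higher in oral mucosa and 98 and 97 in skin. With miR-26a-5p set to 0 it was 166, and the split turned to 102 higher in oral mucosa and 64 in skin. MiR-191-5p gave 198 calls (148 and 50). MiR-26b-5p gave 303, of which 91.7% were higher in oral mucosa, and miR-425-5p gave 311, of which 6.43% were.

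**Figure D4:**
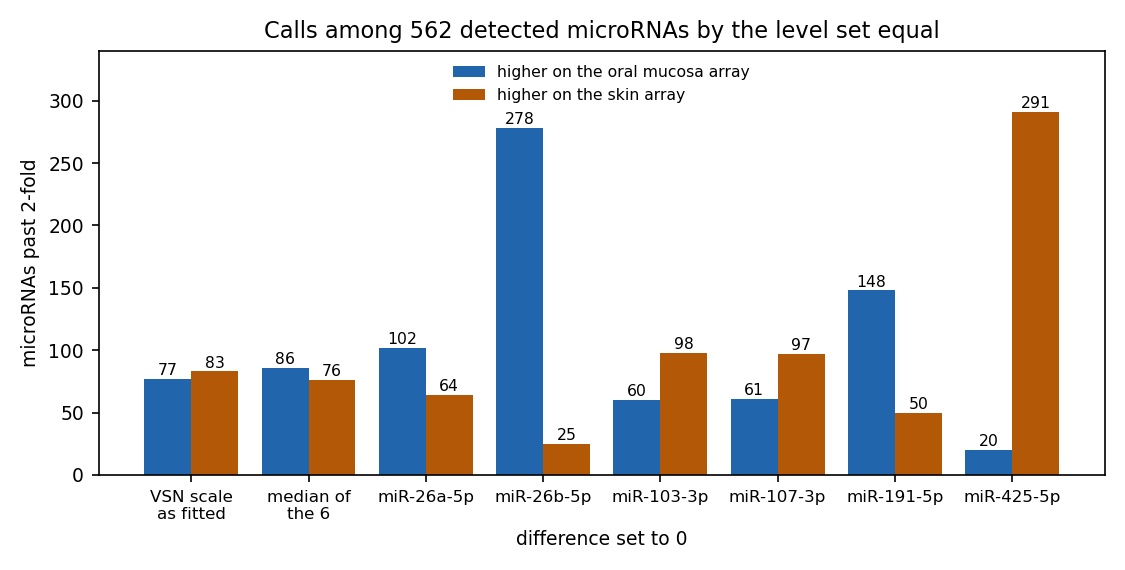
Number of microRNAs at least 2-fold higher in oral mucosa or in skin, of the 562 above the limit for either tissue, with the VSN scale as fitted and after the difference of the named microRNA was set to 0. The counts are 77 and 83 on the fitted scale, 278 and 25 with miR-26b-5p set to 0, and 20 and 291 with miR-425-5p set to 0.

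The other arms of the 8 precursors, usually degraded after the hairpin is cut, were near the background. None of the 8 probes for them was detected on either array. Their levels ran from 39.1 to 50.2 on the skin array and from 44.7 to 57.6 on the oral mucosa array, all below the limits. No difference between the tissues was therefore read from them, and the precursors behind miR-26a-5p and miR-103-3p could not be told apart through their opposite arms.

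A list of 18 other microRNAs often used as reference levels was set beside the members. All 18 have probes, 15 were detected on both arrays, miR-186-5p in oral mucosa only, and miR-423-3p and miR-345-5p on neither. MiR-186-5p, with skin spots of 86.4 and 28.8 and a signal below the limit there, passed the 2-fold rule with a difference of 1.59 (SD 4.99) and is left out of the values that follow. The median difference of the 15 was -0.21, with 7 above 0 and 8 below, and the median size 0.45. Of the 15, only let-7a-5p passed the 2-fold rule, at -1.05 (SD 0.11), followed by miR-152-3p at -0.71 (SD 0.29). The highest of the 15 were miR-484 at 0.79 (SD 0.32) and miR-30c-5p at 0.60 (SD 0.83). The range of the 15 was 1.84, beside 2.03 for the 6 members.

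The 5 probes for 5S ribosomal RNA, a structural RNA of the ribosome that serves as a control on the arrays, had a median difference of -0.21 (-0.33 to 0.25). MiR-26a-5p, miR-103-3p and miR-107-3p lay within that range, and miR-26b-5p, miR-191-5p and miR-425-5p outside it. The 17 synthetic spike probes above the limits had a median of -0.13 and ran more widely, from -1.64 to 0.39. All members but miR-425-5p lay within the range of the spike probes. The quartiles of the 394 microRNAs detected on both arrays were -0.51 and 0.45. How many of the 394 lay within either range was not counted, so a place inside is not read as a trait of the members. With the median 5S probe set to 0, miR-26a-5p was the member closest to 0, at -0.04, and miR-107-3p and miR-103-3p were at 0.34 and 0.35.

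Among the 181 other microRNAs detected on both arrays with a mean level in the range of the members, the 5 whose difference was nearest to the members' median of -0.06 were miR-3620-5p (-0.06), miR-467c-3p (-0.06), miR-468-3p (-0.04), let-7j (-0.08) and miR-24-2-5p (-0.03). With 2 arrays such a likeness is that of 1 value and is given only as a description. Their repeat-spot SDs ran from 0.12 to 0.18. All 5 had a difference smaller in size than those of all 6 members, which follows from how they were picked and is not a result.

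The surroundings of the spots and the makeup of the pools are given beside these differences, and their part in them was not tested. Probes detected on both arrays within 3 rows and 3 columns of a member's spots had a median difference of 0.40 around miR-26b-5p (21 spots), opposite to its own sign, 0.24 around miR-425-5p (20 spots) and -0.25 around miR-26a-5p (16 spots), the last equal to its own. Around the other 3 it lay between -0.16 and 0.01. All 7 epithelial microRNAs listed (miR-203, miR-205 and the miR-200 family) were detected on both arrays. Their summed signal above the empty spots was 48970 in skin and 48416 in oral mucosa, most of it from miR-203-3p and miR-205-5p. These sums and those that follow are not scaled between the arrays, whereas VSN divides the oral mucosa signal by 1.37 relative to skin. On the VSN scale the 7 read in both directions, with miR-200c-3p (-1.22) and miR-429-3p (1.12) past 2-fold, miR-203-3p at -0.48, miR-205-5p at -0.51 and miR-200a-3p at 0.70. The 5 mesenchymal microRNAs (miR-143, miR-145, miR-199 and miR-214) summed to 334 in skin and 1612 in oral mucosa and were each past 2-fold. Of these, miR-143-3p was not detected in skin, and miR-199a-5p and miR-145a-5p read only 1.32 and 1.34 times the limit there. For red blood cells (2 probes of 4 listed) the sums were 32.0 and 3005, with miR-144-3p not detected on either array. For endothelium (2 probes) they were 8.83 and 103.5, and for leukocytes (2 probes of 4) 27.0 and 200. No endothelial or leukocyte probe was detected in skin, and miR-126a-5p and miR-223-3p were detected in neither tissue. For skeletal muscle (4 probes) the sums were 151.7 and 220.4, with miR-133a-3p and miR-133b-3p not detected in skin and miR-1a-3p in neither tissue. MiR-206-3p, detected on both arrays, differed by -0.19 (SD 0.36) on the VSN scale.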

How the data were processed

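Total RNA was extracted with the Qiagen miRNeasy kit and profiled by LC Sciences on µParaflo arrays with probes for mature mouse microRNAs. The authors deposited, per array, the median Cy5 intensity of each spot, with no background subtraction or scaling between arrays. They also deposited 1 processed intensity per microRNA, in whole numbers, by a method not given in the sources used here (median 4 on each array). Repeat spots were averaged and control spots left out of the VSN fit. VSN, the normalization named in the study's methods, was written in Python 3.11.15 (numpy 2.4.6, scipy 1.17.1, pandas 2.3.3) as an arsinh transformation fitted by maximum likelihood, with 90% of probes kept by least trimmed squares in all but the dimmest of 5 slices of signal, and was tested on simulated data. For a microRNA detected in 1 tissue only, the other tissue was given its measured signal or, if higher, the lowest signal called detected there. R 4.3.3 with limma 3.58.1 gave normexp (offset 50). The authors' processed values were compared as log2(value + 50). The named microRNAs are the 6 members, the other arms of their precursors, the list of 18, and the 5 nearest in difference. Members and lists were chosen with earlier results of these data known. Sequences and positions are from RefSeq.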

Additional observations from a re-analysis of the deposited data

How the results depend on the processing

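No paired analysis was possible because there is only 1 array of each tissue. All 6 members stayed detected on both arrays with a limit of 5 SD and with both repeat spots required to pass. On the VSN scale 1 of the 6 passed the 2-fold rule. None did (0) after quantile normalization, after scaling to the 75th percentile or the median, or with the authors' processed values, the second repeat spot only, or normexp followed by quantile normalization. With the first repeat spot only 2 did, miR-26b-5p (-1.20) joining miR-425-5p (1.67), against 40.7% of the 562 microRNAs in that setting. On the VSN scale 2 members passed at 1.5-fold and 3 at a difference of 0.32, as smaller thresholds imply. With the second spots alone the difference of miR-425-5p was 0.61. The median difference of the members was -0.06 with VSN, 0.39 with no normalization, 0.19 with scaling to the total signal, 0.15 with the median 5S probe set to 0, and -0.38 without probes in columns 1 and 2, where miR-103-3p and miR-107-3p drop out and 4 members remain. Over all microRNAs detected on both arrays the median was -0.06 with VSN and 0.35, 0.07 and 0.14 in the first 3 of these. With the authors' processed values it was -0.05 and that of the members 0.09, with scaling to the median 0.05 and 0.09, and with the spike controls 0.07 and 0.08. The range of the members was 2.03, and 2.86 with the first repeat spot only.

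The 160 microRNAs past 2-fold became 80 by quantile normalization, 85 by 75th percentile or median scaling, 102 with no normalization, 87 with the authors' processed values, 70 with normexp and quantile normalization, 104 when detected on both arrays, 577 without a detection filter, and 303 and 311 with miR-26b-5p and miR-425-5p set to 0. The count rose to 229 with the first repeat spot only, 213 with the second only and 207 without spots in columns 1 and 2. Where no construction explains the change, the cause was not tested. Of these calls 48.1% were higher in oral mucosa on the VSN scale, 78.4% with no normalization, 59.6% with the second repeat spot only, 58.9% without spots in columns 1 and 2 and 59.0% with the 5S probes. The settings with the spots of columns 1 and 2 left out, the 5S probes, the spike controls and normexp with quantile normalization were chosen after seeing the data. Signal over background limits miR-425-5p most.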
